A study of Caenorhabditis elegans with 2 samples.

Results

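Distal intergenic LSY-2 summits are the ChIP-seq summits that lay between protein-coding genes and away from their 5′ ends. A summit was counted when it fell outside every protein-coding gene span and outside a window around every protein-coding 5′ end, which reached 1000 bp upstream of it and 200 bp downstream. It also had to lie outside the same window of every tRNA, snoRNA and miRNA gene. Of the 6850 peaks in the authors' thresholded list, 1604 met this rule, or 23.4% (95% Wilson interval 22.4 to 24.4%, counting error only). The other peaks comprised 3340 with a promoter window summit, 1774 inside a protein-coding gene and 132 in a window of a tRNA, snoRNA or miRNA gene.

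The chromatin came from whole L1 larvae of Caenorhabditis elegans, pooled males and females that were starved after bleaching. The single group was strain OP367, which carries unc-119(tm4063) III and the wgIs367 insertion, the source of eGFP-tagged LSY-2. There were 2 biological replicates and no second condition, so differences are descriptions with each replicate's value beside them and carry no p-value. The labels do not give the promoter of the transgene, and in whole larvae a site occupied in few cells and a site weakly occupied in many cannot be told apart. The read depth is unknown, and the signal of a peak is the authors' own value, on a scale that the labels and files do not state.

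LSY-2 is a zinc finger transcription factor, known from genetic screens in which the left and right ASE taste neurons lost their difference in gene expression. Most C. elegans regulatory sequence lies close to the 5′ ends of genes, since the genome is compact, but enhancers farther away are known for Hox and other developmental genes. A summit marks the base of highest read pile-up in a peak, and it can reflect a protein bound through another protein as well as one bound to the DNA itself.

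The strongest summits differed in sequence, and a GA repeat word was in 36.2% of all members and 6.48% of their flanks. The windows below run 50 bp to either side of a summit on the plus strand of WBcel235 (ce11), read from the RefSeq assembly. Capitals mark the words GAGAGA and ACCGTA and their reverse complements, TCTCTC and TACGGT. The first 6 are the strongest members for which sequence is shown, each named by the gene with the nearest 5′ end. The members at F40E3.3, Y48G8AR.8, K08F11.1, F59A7.7 and nlp-40, of similar rank, are described without sequence.
trmt-10C.2, chrIII:6344890-6344990: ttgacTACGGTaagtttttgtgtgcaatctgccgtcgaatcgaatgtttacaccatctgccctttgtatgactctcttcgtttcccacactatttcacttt
snx-6, chrV:17981877-17981977: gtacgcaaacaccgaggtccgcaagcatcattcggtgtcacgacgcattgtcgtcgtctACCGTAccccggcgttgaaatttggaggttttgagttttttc
Y105C5A.1, chrIV:15571010-15571110: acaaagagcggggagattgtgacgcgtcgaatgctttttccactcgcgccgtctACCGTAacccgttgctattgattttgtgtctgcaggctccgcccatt
C30E1.4, chrX:16929714-16929814: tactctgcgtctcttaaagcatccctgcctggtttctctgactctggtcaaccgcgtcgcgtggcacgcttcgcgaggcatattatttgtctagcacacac
ZK899.6, chrX:9465815-9465915: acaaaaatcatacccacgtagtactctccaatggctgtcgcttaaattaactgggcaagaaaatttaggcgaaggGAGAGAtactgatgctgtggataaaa
F19H6.5, chrX:12363098-12363198: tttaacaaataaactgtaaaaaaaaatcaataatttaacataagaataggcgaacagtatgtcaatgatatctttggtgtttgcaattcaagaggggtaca
The windows at trmt-10C.2, snx-6 and Y105C5A.1 each hold ACCGTA or TACGGT, and of these 6 only that at ZK899.6 holds GAGAGA. The next 4 are the strongest remaining members with GAGAGA or TCTCTC among those for which sequence is shown, chosen after the words had been counted.
gldi-3, chrII:9282927-9283027: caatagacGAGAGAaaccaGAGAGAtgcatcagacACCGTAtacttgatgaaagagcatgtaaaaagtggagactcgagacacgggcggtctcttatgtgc
mtm-3, chrIII:3801509-3801609: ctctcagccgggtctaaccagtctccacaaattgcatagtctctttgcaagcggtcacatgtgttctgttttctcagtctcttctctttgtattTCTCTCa
aakg-1, chrIII:12583624-12583724: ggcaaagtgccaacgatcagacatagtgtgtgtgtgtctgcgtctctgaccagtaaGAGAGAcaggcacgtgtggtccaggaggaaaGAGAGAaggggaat
F54F12.1, chrIII:13061257-13061357: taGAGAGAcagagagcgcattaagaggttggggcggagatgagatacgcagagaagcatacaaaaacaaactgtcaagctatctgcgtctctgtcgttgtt
The windows at gldi-3 and aakg-1 each hold GAGAGA at 2 places, and that at gldi-3 also holds ACCGTA.

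Distal intergenic summits were weaker than promoter summits in both replicates. Their median signal was 134.6, with quartiles at 91.5 and 237, against 242 at promoter summits and 129 at summits inside genes. In replicate 1 the medians were 62.8 at distal intergenic and 119.8 at promoter summits, and in replicate 2 they were 75.5 and 125.5. The log2 ratio of the distal to the promoter median was −0.85 on the authors' pooled signal, −0.93 in replicate 1 and −0.73 in replicate 2, so both replicates gave the same direction. The distal median was the lower on each of the 6 chromosomes, from a log2 ratio of −1.14 on chromosome I to −0.39 on X. Only 30 members, or 1.87%, reached a signal of 1000, against 335 promoter summits, or 10.03%.

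Members made up a smaller share of the peaks as strength increased. They were 30.4% of the 685 weakest thresholded peaks (95% interval 27.04 to 33.9%) and 10.8% of the 685 strongest (8.69 to 13.3%), while promoter summits went from 29.9% to 80.1%. Among the 30000 regions of the pooled list, which includes background, 7342 had a distal intergenic summit, and 21.8% of these were in the thresholded list. The share was 42.1% for promoter regions and 12.3% for regions inside genes, beside 22.8% for all regions. Per megabase (Mb) of sequence that met the rule, 24.7 Mb in all, there were 65.0 members, against 155 promoter summits per Mb of promoter window and 33.1 per Mb inside genes.

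The thresholded list was made by comparing the replicates, and their lists include background, so most members had to have a region in both. A replicate summit lay within 100 bp in both lists for 1541 members, or 96.1% (95% interval 95.01 to 96.9%), beside 97.2% of promoter summits and 95.9% of those inside genes. Another 25 had one only in replicate 1, 37 only in replicate 2, and 1 in neither. Of the 1541, 1159 had the higher signal in replicate 2. The median log2 ratio of the replicates, 2 over 1, was 0.30 (SD 0.51) at members, 0.28 at summits inside genes and 0.11 at promoter summits. The spread narrowed with strength, from an SD of 0.65 among members with a signal under 100 to 0.29 among the 124 with 500 or more. All 124 of these were in both lists.

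**Figure D1:**
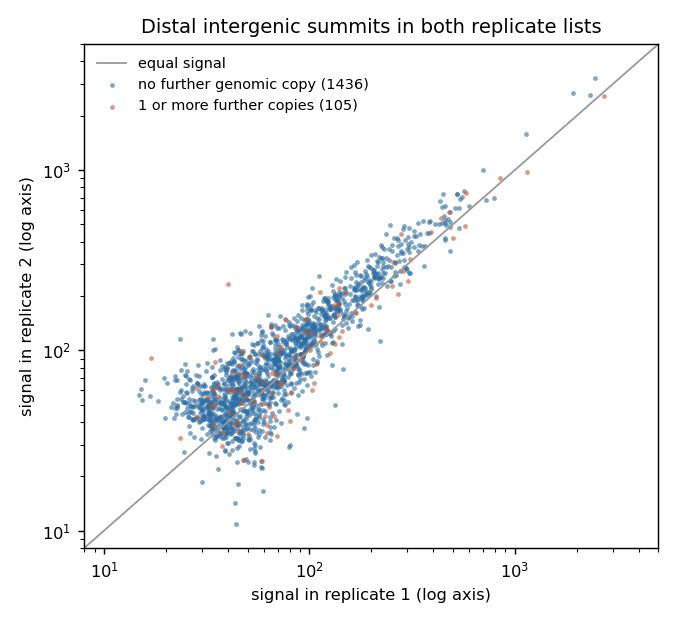
Signal of each distal intergenic summit found in both replicate lists, replicate 1 on the x axis and replicate 2 on the y axis (both log axes, the authors' signal value), with orange points for summits whose window has a further genomic copy. Most points lie above the line of equal signal, and the scatter around it is wider for weak summits.

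The strongest member lay 1341 bp upstream of trmt-10C.2, a gene of the tRNA methyltransferase family, in the gap it shares with the divergent gene C56G2.9. Its signal was 2467 in replicate 1, 3258 in replicate 2 and 5718 in the thresholded list, where it ranked 90 among all peaks. The second, 430 bp past the 3′ end of F40E3.3 and before mage-1, had signals of 2723 and 2564 in the replicates and 5290 pooled. These were the only 2 members among the 100 strongest peaks. The third, 1845 bp upstream of the sorting nexin gene snx-6 with Y59A8B.21 on its other side, had 2323 and 2592. The fourth, 6633 bp upstream of Y105C5A.1 towards pqn-76, had 1914 and 2677. Both replicates placed these 4 above every other member.

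The next members stood between genes of varied function. One between Y48G8AR.8 and Y48G8AR.2 had replicate signals of 1133 and 1582, and one between K08F11.1 and the F-box gene fbxb-78 had 1142 and 977. One between cysl-4, of the cysteine synthase family, and F59A7.7 had 846 and 908. The ninth member lay 179 bp past the 3′ end of nlp-40 and 468 bp from rcor-1, in a gap of convergent genes. nlp-40 encodes a neuropeptide that the intestine secretes to time defecation, and rcor-1 a CoREST-type corepressor. Its signals were 790 and 697. A member between C30E1.4 and F52G3.8 had 701 and 997, and one between ZK899.6 and gap-2, a Ras GTPase-activating protein gene, had 722 and 683. A member in the short gap between F19H6.6 and F19H6.5 had 563 and 767. The member near ins-13, an insulin-like peptide gene, lay between C17C3.24 and ins-13 with 576 and 749.

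The other 8 of the 20 strongest members ranged in pooled signal from 1129 to 1267. They lay between gldi-3 and mtrr-1, a methionine synthase reductase gene, between C36B1.9 and gskl-2, between mtm-3, a myotubularin gene, and xbx-5, and between the deubiquitinase gene usp-5 and trak-1, which encodes a kinesin adaptor. The rest lay between W04G3.11 and W02H3.3, between aakg-1, an AMP-activated kinase subunit gene, and gldi-8, between F09E10.1 and toca-1, and between the metalloprotease gene adm-2 and K02D3.1. All 20 were in both replicate lists, 16 of them higher in replicate 2. Of the 20, 10 lay upstream of the nearest 5′ end, 11 lay between tandem genes, 4 between divergent and 5 between convergent ones, and 6 were on X. At the weak end, the member with the lowest signal, 5523 bp upstream of doxa-1, had 25.6 and 42.5 in the replicates and 68.8 pooled.

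Some members, strong ones among them, sit in repeated sequence, and the case given here was chosen after its values were seen. The window of the F40E3.3 summit had 7 further near-identical copies in the genome, with identities of 97.1% to 99.0%, and 7 of the 8 copies carried a thresholded summit. Of these, 5 were distal intergenic members. Their pooled signals were 5290 at F40E3.3, 2112 and 612 at 2 places nearest to K08F11.1, 876 nearest to djr-1.2, a DJ-1 family gene, and 351 nearest to K08D10.11. A copy inside a gene, nearest to the 5′ end of the collagen gene col-72, had 2135, and one in the promoter window of Y20F4.8 had 252. The copy nearest to fbxa-136, on chromosome V, had no thresholded summit. The copies thus differed in signal in both replicates, from 2723 and 2564 at F40E3.3 to 146 and 99.5 at Y20F4.8. How reads that match several copies were placed is not stated in the labels or files, and its part in these values was not tested.

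In all, 109 members (6.80%, 95% interval 5.66 to 8.13%) had at least 1 further copy of at least 80% identity over 60 bp, close to the 7.10% of promoter summits and below the 13.02% of summits inside genes. Of the 20 strongest members, 4 had at least 1 further copy. These were the members at F40E3.3 and K08F11.1 with 7 each, at F59A7.7 with 8 and at ins-13 with 2. Among all members, those with 5 or more copies numbered 63, or 3.93%, and 50 members shared sequence with another member, in 15 groups. Without any peak that has a copy, the log2 ratio of distal to promoter signal was −0.88.

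Most members lay upstream of the nearest gene and within a few kilobases of it. The median distance to the nearest protein-coding 5′ end was 2380 bp, with quartiles of 1512 and 3822 bp. The gene lay downstream of the summit, so that the summit was on its promoter side, for 1185 members, or 73.9% (95% interval 71.7 to 76.0%), while 66.5% of the eligible sequence lies on that side. Density fell with distance on the promoter side, from 89.97 members per Mb at 1000 to 1500 bp, through 77.3 at 2000 to 3000 bp and 56.4 at 5000 to 10000 bp, to 24.3 beyond 10000 bp, where 13 members lay. On the other side of the gene it was 77.8 per Mb at 500 to 1000 bp and 47.3 at 5000 to 10000 bp. The median signal was 150 at 1000 to 1500 bp upstream, 126 at 3000 to 5000 bp, 141 at 5000 to 10000 bp and 109 beyond that.

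**Figure D2:**
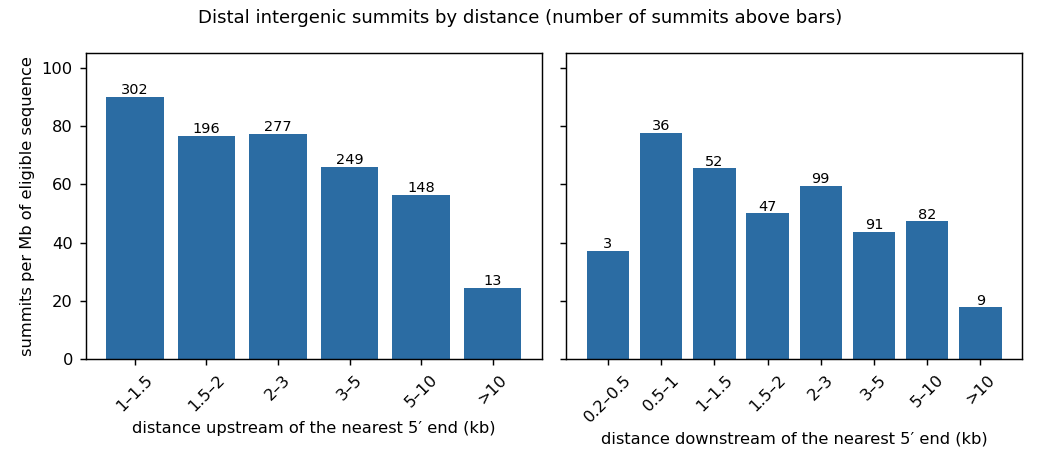
Distal intergenic summits per Mb of eligible sequence (y axis) by distance in kb upstream (left) or downstream (right) of the nearest protein-coding 5′ end (x axis), with the number of summits above each bar. Upstream bars fall from 89.97 to 24.3 per Mb, and the bar nearest to the gene on the right rests on 3 summits.

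The 5 members farthest from any 5′ end included a pair past the 3′ end of sql-1, which encodes a golgin of the Golgi. They lay 34541 and 28626 bp from its 5′ end, although the second was only 131 bp past its 3′ end. The replicate signals were 58.5 and 24.4 for the first, which lies in a pseudogene and has 12 further copies, and 132 and 108 for the second. The strongest of the 5 lay 13394 bp upstream of irld-18 in a gap of divergent genes that ends at dmd-6, a DM domain factor gene, with 427 and 504. The remaining ones lay 15215 bp upstream of C31H1.2, with 56.97 and 64.01, and 12911 bp upstream of F57G12.1, with 46.4 and 61.0. Only the first of the 5 was more than 2-fold apart between replicates.

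The limits of the rule separated summits a few bases apart. At the upstream limit, the first members lay at −1001 bp of hil-1 and of ppk-1 and at −1003 bp of ZK1055.7, with pooled signals of 122, 151 and 76.3. Promoter summits just outside lay at −1000 bp of nex-2, −999 bp of K05C4.9 and −997 bp of ttr-41, with 91.1, 97.2 and 129. On the downstream side the first members lay 208 and 411 bp past the 5′ end of T05C7.9 and 285 bp past that of R10A10.1, with 88.0, 68.8 and 76.5. No promoter summit lay in the downstream part of the window and outside gene spans.

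Gaps between convergent genes held few members. Of all members, 930 (58.0%) lay between tandem genes, 525 (32.7%) between divergent and 149 (9.29%, 95% interval 7.96 to 10.8%) between convergent ones. The shares of eligible sequence were 53.5%, 29.8% and 16.4%, which gives 70.4, 71.4 and 36.8 members per Mb. In the replicates' own strongest 6850 regions the convergent share was 10.3% in replicate 1 and 9.19% in replicate 2.

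Many members had company. They occupied 1112 gaps, of which 812 held 1 member and 110 held 3 or more, with 412 members between them. The gap with the most, 9, lies between snt-1, the synaptotagmin gene, and egl-27, which encodes an MTA-type chromatin protein, and is 18.6 kb long. Its strongest member, 5685 bp upstream of egl-27, had 207 in replicate 1 and 343 in replicate 2. The weakest, 9080 bp upstream of egl-27, had 30.6 in replicate 1 and no region in replicate 2.

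The gap of 15.3 kb between the divergent genes F54F12.1 and Y39E4B.6 held 7 members, with pooled signals from 73.7 to 1099. The gap of 19.03 kb between the divergent Hox genes lin-39 and ceh-13, which act in the mid-body and the anterior, held 6. In replicate 1 these had 33.3, 44.9 and 68.9 on the lin-39 side and 88.2, 43.7 and 47.4 on the ceh-13 side. In replicate 2 they had 49.01, 31.9 and 90.3, then 157, 61.2 and 24.6. The member 4493 bp upstream of ceh-13 was the highest of the 6 in both replicates. Further gaps with many members were those from W04D12.1 to the RNA helicase gene ddx-23 with 7 in 11.7 kb, from mstr-1 to the asparaginyl-tRNA synthetase gene nars-1 with 7 in 5.99 kb, and from the aspartate aminotransferase gene got-2.2 to W05H9.4 with 7 in 20.9 kb. F57G12.1 to cab-1 held 6 in 27.97 kb and CC8.2 to fmil-1 held 5 in 10.2 kb. Of the members, 20 repeat the interval of another peak with a second summit, so summits that lie close together are not always separate peaks.

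**Figure D3:**
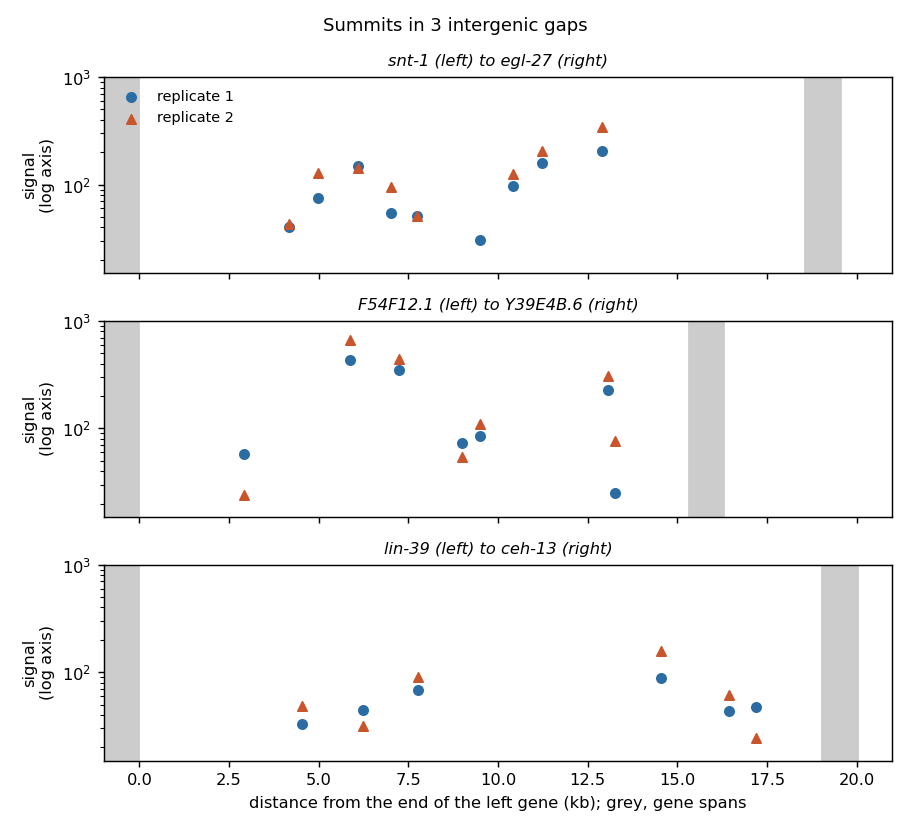
Signal of each member in replicate 1 (circles) and replicate 2 (triangles) on a log axis against distance in kb from the end of the left gene, for the gaps snt-1 to egl-27, F54F12.1 to Y39E4B.6 and lin-39 to ceh-13, with gene spans in grey. Members are spread along each gap, and the highest member of each gap is the highest in both replicates.

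The genes nearest to members were described by 21 lists, chosen with earlier results of these data known. Of the 19973 protein-coding genes, 1254 had the nearest 5′ end of at least 1 member, or 6.28% of all, and 10.9% of the 11529 genes with eligible sequence nearest to them. Since genes differ in how much such sequence they have, the members per Mb of each list's own sequence are given beside the 65.0 for all genes. No list was tested, and lists share genes with one another.

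Most lists of developmental transcription factors had more members per Mb than genes at large. Among homeobox genes 21 of 100 had a member, with 100.5 members per Mb. Their strongest lay 4423 bp upstream of ttx-1, an Otx-type gene of the AFD thermosensory neuron, with replicate signals of 343 and 385. Others lay 6814 bp upstream of ceh-43, the Distal-less homolog, with 204 and 278, and 1146 bp upstream of the Msx-type gene vab-15, with 140 and 180. Of the 6 Hox genes, 4 had members (10 in all, 212 per Mb). These were ceh-13, whose strongest, past its 3′ end, had 97.1 and 166, egl-5 with 94.3 and 114.9, lin-39 and nob-1, whose strongest had 84.0 and 61.8. Each of the 4 also had a promoter summit.

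Nuclear hormone receptor genes, a family that has expanded in nematodes, had members at 34 of 274 (106 per Mb). The strongest lay 2580 bp upstream of nhr-88 with 303 and 423, 1398 bp upstream of nhr-14 with 323 and 375, and 4658 bp upstream of nhr-20 with 306 and 372, followed by nhr-10 with 246 and 243. In this list 46 of 50 members (92.0%) were on the promoter side, which holds 72.5% of the list's eligible sequence. The bHLH list had members at 6 of 40 genes (84.5 per Mb). Its strongest lay 1951 bp upstream of hif-1, the hypoxia-inducible factor gene, with 455 and 629. Of the list's 10 members, 5 were nearest to mxl-3, a Max-like factor gene, the strongest with 169 and 216. The density of the list thus rests largely on mxl-3. hlh-29 had 113 and 120 and mml-1, a Mondo-type gene, 65.7 and 124.

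Forkhead genes had members at 5 of 15 (122 per Mb). A member 3773 bp upstream of pha-4, the pharynx organ identity gene, had 263 and 262, that of unc-130 182 and 190, that of fkh-9 87.4 and 88.1 and that of fkh-7 56.9 and 95.96. T-box, SOX and GATA genes had them at 6 of 37 (93.0 per Mb). Of the list's 11 members, 6 were nearest to egl-27, so its density rests largely on that gene. The other genes included tbx-41 with 186 and 222, sox-2 with 113 and 132 and tbx-33 with 88.98 and 107. None of the 10 myogenic factor genes was nearest to a member, and they have little eligible sequence, 0.0214 Mb. The genes of ASE laterality, the process LSY-2 is named for, had 2 of 20, namely sox-2 and ceh-36, an Otx-type gene of the ASE and AWC neurons, with 90.6 and 95.7 at 7920 bp upstream. That is 36.7 per Mb, below the value for all genes, on 2 members. By the share of genes with a member the list was above all genes, 10% against 6.28%, so the 2 measures disagree.

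Timing and signalling genes followed. Of the 15 heterochronic genes, which time larval cell fates, 5 had a member (159 per Mb). The strongest lay 1466 bp upstream of lin-41, a target of the let-7 miRNA, with 223 and 255. Those of alg-1, an Argonaute gene, had 90.4 and 104.1, of hbl-1, the hunchback homolog, 94.2 and 84.1, and of lin-14 22.7 and 68.6. The lin-14 value thus rests mostly on replicate 2. In the Wnt list 6 of 28 genes had members (107 per Mb). Those were led by kin-19, a casein kinase 1 gene, with 225 and 373, sfrp-1, a Frizzled-related gene, with 140 and 210, the Axin gene pry-1 with 70.2 and 64.2 and mig-14, the Wntless homolog, with 59.4 and 56.2. Insulin signalling genes (5 of 49, 70.5 per Mb) included ins-13, described above, and the kinase genes akt-1 with 90.9 and 109 and pdk-1 with 61.5 and 101.2. A member past the 5′ end of ins-17 had 31.6 in replicate 1 only. It lay in a gap of 41 bp between ins-17 and the convergent ribosomal protein gene rps-1.

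Genes used in all neurons and genes of the body wall muscle stood high. Of 24 pan-neuronal genes, 11 had a member (13 in all, 261 per Mb). They included egl-3, a proprotein convertase gene, with 180 and 190 at 1108 bp upstream, and the syntaxin gene unc-64 with 133 and 206 at 1285 bp. The endophilin gene unc-57 had 123 and 177 at 1151 bp, and unc-33, of the CRMP family, 115.1 and 167 at 1054 bp. These 4 lie just beyond the 1000 bp limit of the rule, and none of the 4 genes had a promoter summit. Of 38 body wall muscle genes, 10 had members (202 per Mb). They were led by unc-60, which encodes ADF/cofilin, with 362 and 294 at 3335 bp upstream, and the calponin-like gene unc-87 with 179 and 238 at 1444 bp. The β-spectrin gene unc-70 had 130 and 198, and the myosin heavy chain gene myo-3 89.8 and 120.

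Ribosomal protein genes had the highest density of the lists, 436 members per Mb, and most of their members lay past the 3′ end of the gene. Of 82 genes, 17 were nearest to 22 members, all 17 with a promoter summit as well, and 75 of the 82 genes had a promoter summit. On the 3′ side of the gene were 19 of the 22, while 40.2% of the list's eligible sequence lies on the 5′ side. Of those 19, 15 (78.9%) were within 500 bp of the annotated 3′ end, against 39.9% of the 419 downstream members of all genes, and their median distance past it was 262 bp, against 850 bp. The gaps at rps-17, rps-13, rps-19, rps-11 and rpl-13 measured 180, 192, 324, 332 and 412 bp, so no larger distance was possible there. Among genes with eligible sequence, its median was 0.43 kb in this list and 1.25 kb for all genes. How much of it lies within 500 bp of a 3′ end was not computed, so this contrast has no base. The strongest of the 22 members lay 186 bp past the 3′ end of rps-13 with 145 and 158 in the replicates. Its gap of 192 bp ends at the convergent gene thoc-2, whose 3′ end was thus nearer. The same held for rps-19 (322 bp, in a gap of 324 bp with T05F1.2) and rps-17 (163 bp, in 180 bp with rbm-5). It also held for rps-11 (229 bp, in 332 bp with ragc-1) and rpl-13 (252 bp, in 412 bp with ptr-2). One member lay 192 bp past the 3′ end of ubl-1, a ubiquitin-like fusion gene, with 91.3 and 109. Another lay 262 bp past that of rpl-11.2, named after its values were seen, with 133 and 49.7. Pooled signal was modest throughout, from 73.6 to 289 with a median of 118. The median distance from these 22 members to the nearest promoter summit was 1418 bp, against 7700 bp for all members, and 1 of them lay within 1000 bp of one. The members lay a median of 1102 bp from the 5′ end of the gene, and the part of the neighbouring promoter peak in their signal was not tested. The 3 on the 5′ side were 2 members of rps-28 and that of rps-25, which had 103.6 and 142 at 5601 bp.

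Large families of the environmental response had few. Chemoreceptor genes had members at 12 of 1272 (10.3 per Mb), led by sri-5 with 171 and 178, srg-64 with 131 and 128, srab-24 with 101.7 and 109 and srg-55 with 78.7 and 81.4. F-box genes had them at 5 of 322 (17.3 per Mb), the strongest at fbxc-48 with 125 and 125, then fbxa-141 with 69.5 and 114, fbxa-216 with 64.9 and 57.8 and fbxa-167 with 43.4 and 77.4. C-type lectin genes had them at 4 of 240 (23.02 per Mb), with clec-91 at 185 and 200, clec-181 at 65.1 and 141, clec-1 at 65.4 and 57.8 and clec-10 at 33.1 and 40.3. Neuropeptide genes had 2 of 102 (6.86 per Mb), nlp-40 and flp-19, the latter with 53.1 and 65.8. These families also had few promoter summits, 1.34% of chemoreceptor and 5.88% of neuropeptide genes against 21.1% of all genes. Cuticle collagens were close to the value for all genes, with members at 9 of 176 (53.0 per Mb), led by col-185 with 289 and 289, dpy-10 with 110 and 141, col-55 with 70.4 and 100 and col-145 with 68.8 and 75.5. The 72 histone and 33 proteasome genes had none, and they have little eligible sequence, 0.0257 and 0.00268 Mb.

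**Figure D4:**
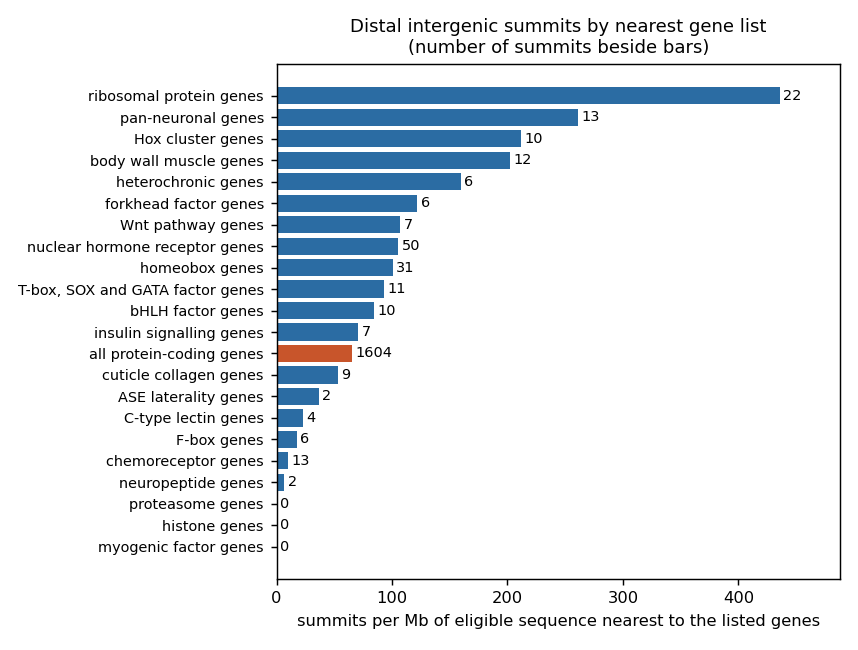
Distal intergenic summits per Mb of eligible sequence whose nearest 5′ end belongs to a gene of each list (x axis), with all protein-coding genes in orange and the number of summits beside each bar. Ribosomal protein genes stand at 436 per Mb on 22 summits and chemoreceptor genes at 10.3 on 13, against 65.0 for all genes.

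Genes with a distal member more often had a promoter summit too. Of the 1254 nearest genes, 355, or 28.3% (95% interval 25.9 to 30.9%), had one, against 12.95% (12.3 to 13.6%) of the 10275 genes with eligible sequence and no member. The background was 14.6% of all genes with eligible sequence. Among genes nearest to 2 or more members the share was 38.6% (32.6 to 44.9%). The difference was present at every amount of eligible sequence, 44.9% against 15.6% where it was under 500 bp and 25.9% against 7.63% where it was 5000 bp or more. Counted by member, 505 of 1604 (31.5%) had a nearest gene with a promoter summit. The nearest promoter summit of any gene was a median of 7700 bp from a member, with quartiles of 3067 and 19114 bp, and 15.7% of members had one within 2000 bp.

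Most members were outside every annotated gene. No gene of any kind covered 1443 members, or 89.96%, near the 86.3% of the eligible sequence without one. Genes annotated as ncRNA, a class of mostly unstudied transcripts, covered 129, or 8.04% (95% interval 6.81 to 9.48%), while they cover 1.64% of the eligible sequence. Pseudogenes covered 11, or 0.69%, against 10.8% of the sequence. The median signals were 126 in ncRNA genes and 144 in pseudogenes.

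The sequence at members was richer in G and C than their surroundings. The windows of 50 bp to either side had a mean GC content of 43.1% (SD 7.51 over 1604 windows), against 33.97% in flanks centred 300 bp to either side and 34.2% over the eligible sequence, and close to the 44.4% at promoter summits. Soft-masked repeat sequence made up 20.6% of the windows, 38.7% of the flanks and 40.4% of the eligible sequence.

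The 6-base word GAGAGA, in either orientation as in the windows printed above, was in 36.2% of members (95% interval 33.9 to 38.6%) and in 6.48% of their flanks. Promoter summits had it in 22.99% (21.6 to 24.5%) and summits inside genes in 31.1%. Among members the share went up with strength, from 29.8% below a signal of 100 to 45.1% at 200 to 500 and 43.5% (35.1 to 52.3%) at 500 or more. Summits inside genes showed the same order, with 24.02% below 100, 40.1% at 200 to 500 and 42.1% (33.4 to 51.3%) at 500 or more. At promoter summits it went from 25.3% to 24.8% and then to 15.9% (13.5 to 18.6%) at the same strengths. Members with the word had median signals of 71.4 in replicate 1 and 90.8 in replicate 2, and those without it 59.2 and 69.6. At promoter summits the order was the opposite in both replicates, 101.5 and 113 with the word and 128 and 131 without. On chromosomes I, III and V, GAGAGA stood highest over flanks of all words of 6 bases, and the word next to it was AGAGAG, which overlaps it. All of the first 10 were also higher at members than in flanks on II, IV and X, where GAGAGA was in 32.2% of members and 6.34% of flanks.

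**Figure D5:**
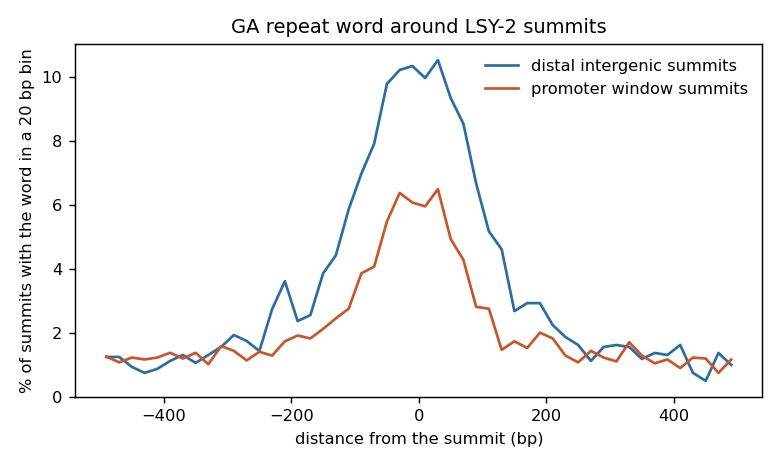
Share of summits with the GA repeat word centred in each bin of 20 bp (y axis, percent) against distance from the summit in bp (x axis), for distal intergenic (blue) and promoter (orange) summits. Both curves are highest around the summit, at 10.5% for members and 6.50% for promoter summits, and both are under 2% beyond 300 bp.

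The words described next were less frequent at members than GAGAGA, but not every word was. On II, IV and X, AGAGAA was in 33.5% of members and 10.8% of flanks. There GAGAAA was in 32.6% of members and 16.8% of flanks, beside 32.2% of members with GAGAGA. Also among the first 10 words, CGTCTC was in 17.1% of members, 3.29% of flanks and 17.2% of promoter summits on these chromosomes. ACCGTA, chosen after the strongest windows were read, was in 7.23% of members, 2.96% of flanks, 9.10% of promoter summits and 6.71% of summits inside genes. At a signal of 500 or more it was in 11.3% of members (6.85 to 18.1%) and 25.7% of promoter summits (22.8 to 28.8%). Summits inside genes of that strength had it in 21.1% (14.6 to 29.4%). The E-box CACGTG, its own reverse complement, was in 5.86% of members and 1.75% of flanks. It was in 3.65% of promoter summits and 5.58% of summits inside genes. At a signal of 500 or more it was in 2.42% of members, 2.26% of promoter summits and 9.65% of summits inside genes. The homeobox word TAATTA was in 1.81% of members and 6.05% of flanks, and the GATA word TGATAA in 8.23% and 9.88%. A word in a window is a description and not a site.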

How the data were processed

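Peaks came from ChIP-seq of 2 biological replicates, per the labels. The authors deposited a list of 30000 regions per replicate, a pooled list and a thresholded list, each with a signal value, a −log10 q-value and a summit offset. Signal was used as deposited to describe and rank, q did not rank the thresholded peaks, and the summit is the authors' own. The labels and files name no aligner, peak caller or signal scale. The ce10 lists were not used.

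Members were found with Python 3.11.15, pandas 2.3.3 and Ensembl release 115 on WBcel235, which is ce11. The rule was tested on simulated data, with 0 of 3000 positions wrong. Further copies were found with BLAST+ 2.17.0. Wilson intervals used SciPy 1.17.1. Gene lists matched all but 4 of 295 names. Named genes were those flanking the 20 strongest members, the 5 farthest, the 8 fullest gaps, up to 4 genes a list and the strain's loci. Members and lists were chosen with earlier results of these data known. Alternatives were other windows, noncoding genes, repeated intervals, each replicate alone, stronger peaks, other tolerances, gene assignments, windows and flanks, and peaks without copies.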

Additional observations from a re-analysis of the deposited data

How the results depend on the processing

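No paired analysis was possible because there is only 1 group. The log2 signal ratio, the GC difference and the GAGAGA difference kept their direction under every alternative run. The count was 1029 with windows of 2000 and 500 bp, 2092 with 500 and 100 bp, and 1551 to 1578 in single replicates. It was 1249 with windows of pseudogenes and of other noncoding genes, except piRNA genes, left out. The log2 signal ratio was −0.46 in the stronger 3425 peaks, −1.14 on chromosome I, −1.02 on II, −0.65 on V and −0.39 on X, and −0.93 to −0.73 in single replicates. The chromosomes and the set without copies were chosen after seeing the data. The median distance was 1670 bp to the nearest gene edge, 2271 bp for stronger peaks and 2347 to 2400 bp in single replicates. The share in both replicate lists was 82.3% within 50 bp, 99.6% within 200 bp and 76.0% with the strongest 6850 regions of each replicate. In stronger peaks 59.5% of members lay between tandem, 32.5% between divergent and 7.97% between convergent genes; single replicates gave 56.996 to 57.9%, 32.8 to 32.9% and 9.19 to 10.3%. The share of genes was 5.61% within 5000 bp, 10.5% with either flanking gene, and 6.07 to 6.30% in single replicates. The GC difference from flanks, 9.13 percentage points, was 8.25 to 9.74 in single replicates. The GAGAGA difference, 29.7 points, was 17.02 in windows of 25 bp and 39.2 in windows of 100 bp to either side, and 27.8 to 31.5 in single replicates. Of 21 lists, 13 had a higher share than all genes; T-box, SOX and GATA factors and ASE laterality moved to the other side within 5000 bp, ASE laterality with either flanking gene, and myogenic factors without replicate 1, from 0 to 10% of 10 genes. These alternatives cover the share of genes only, and the members per Mb of the lists were not recomputed under them. The cause of these shifts was not tested. Unknown read depth limits every comparison of signal.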

Other observations

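Members were unevenly spread over the genome. There were 100.6 per Mb of eligible sequence on chromosome III and 99.2 on I, against 45.1 on V, 51.9 on IV and 55.4 on X. Promoter summits were also densest on III and I. Per Mb of promoter window they numbered 237 on III and 222 on I, against 95.9 on V, 145 on IV and 131 on X. The share of members among the peaks was 29.9% on X (95% interval 27.1 to 32.7%) and 22.3% on the autosomes (21.2 to 23.4%). With each chromosome cut into 3 equal parts, the middle parts had 84.3 per Mb and the outer ones 56.6. The share of members among the peaks went the other way. It was 21.5% in the middle parts (95% interval 20.01 to 22.98%) and 24.9% in the outer ones (23.6 to 26.3%).

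Neither locus of the strain was the nearest gene of a member. The member closest to lsy-2 lay 49.4 kb away, nearest to dpy-3, with a signal of 104.6, and that closest to unc-119 lay 78.3 kb away, nearest to sca-1, with 164. The gene with the most members, found after values were seen, was F57G12.1 with 7, followed by W04D12.1 and egl-27 with 6 each. All 3 had a promoter summit, while dmd-6 and K08F11.1, with 5 each, had none.

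Chosen likewise after values were seen, the largest group of members that share sequence held 9 members on all 6 chromosomes, with pooled signals from 73.6 to 221 and a median of 23 further copies. Its strongest was nearest to Y50D4C.12. Another held 4, with signals from 81.4 to 1018, its strongest nearest to mog-4.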
